A study of Rattus norvegicus with 12 samples.

Results

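The genes of red blood cells examined in rat heart tissue were Hba-a1, Hba-a2, Hbb, Alas2 and Slc4a1, 5 of the 34599 genes in the count table. They were found by symbol, and they had been chosen from these same measurements because hemoglobin was lower after myocardial infarction (MI) and higher in treated rats. Their levels are therefore given as a description, without a test. RNA-seq was done on left ventricular tissue from 12 male Sprague-Dawley rats, 4 in each group, at day 1 after surgery. Sham rats had the chest opened without coronary ligation, and MI rats had the left anterior descending coronary artery tied. iCarP+/Light+ rats had the same ligation, then an injection of Chlorella, a green alga that gives off oxygen in light, into the infarcted ventricle. A swab was pressed on the injection site, and the photonic patch iCarP was glued to the epicardium. The patch was lit continuously for a few hours only, a time limited by anesthesia. iCarP+/Light+ rats thus differed from MI rats by injection, alga, adhesive, patch and light, and ligated rats with an unlit patch were not analysed here. The labels name the sampled tissue as the infarct region, also for Sham rats, which had no infarct.

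Hemoglobin, the oxygen carrier of blood, is built from α-globin and β-globin chains that each hold a heme group. In adult mammals the mature red cell has lost its nucleus, whereas the reticulocyte, the young red cell released from bone marrow, still carries globin mRNA. Alas2 makes the first and rate-limiting enzyme of heme synthesis in red cell precursors. Slc4a1 makes band 3, which exchanges chloride for bicarbonate across the red cell membrane and anchors its skeleton. In a sample of whole heart, transcripts of these genes can come from blood in the vessels, from bleeding into the tissue or from other cells that use them.

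All 5 genes lay on the minus strand of rn6, the build named in the submitters' processing notes, and were annotated as protein coding. The α-globin genes Hba-a1 (ENSRNOG00000029886, chr10:15602794-15603649) and Hba-a2 (ENSRNOG00000047321, chr10:15589364-15590220) were neighbours. Hbb (ENSRNOG00000058105) was at chr1:168971274-168972725, Alas2 (ENSRNOG00000000167) at chrX:23167696-23187341 and Slc4a1 (ENSRNOG00000020951) at chr10:90296141-90312386. None of the 5 overlapped another listed gene. The globin genes have close copies, so how reads were divided between Hba-a1 and Hba-a2, or between Hbb and the other β-globin genes, is uncertain.

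Promoters of 4 of the 5 genes, all but Slc4a1, were matched in the RefSeq table used here, on the GRCr8 build. The window listed for Alas2 began inside the listed span of that gene and is not printed. The 250 bases before the start of each globin gene are shown because these genes moved together from rat to rat. Capitals mark exact matches, on either strand, to CCAAT, to CACCC, to the GATA-type words AGATAA and TGATAA, and to TATAAA.
Hba-a1, chr10:15842581-15842830, minus strand: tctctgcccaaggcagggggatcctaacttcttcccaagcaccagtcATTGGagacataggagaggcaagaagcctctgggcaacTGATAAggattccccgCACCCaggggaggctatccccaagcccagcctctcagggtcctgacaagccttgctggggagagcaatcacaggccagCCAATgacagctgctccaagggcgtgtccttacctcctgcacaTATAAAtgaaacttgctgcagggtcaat
Hba-a2, chr10:15829139-15829388, minus strand: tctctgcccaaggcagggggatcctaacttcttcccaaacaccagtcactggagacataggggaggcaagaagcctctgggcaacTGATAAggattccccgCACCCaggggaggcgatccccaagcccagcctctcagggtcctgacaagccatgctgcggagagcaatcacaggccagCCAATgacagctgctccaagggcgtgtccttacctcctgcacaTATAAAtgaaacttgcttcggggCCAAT
Hbb, chr1:167663722-167663971, minus strand: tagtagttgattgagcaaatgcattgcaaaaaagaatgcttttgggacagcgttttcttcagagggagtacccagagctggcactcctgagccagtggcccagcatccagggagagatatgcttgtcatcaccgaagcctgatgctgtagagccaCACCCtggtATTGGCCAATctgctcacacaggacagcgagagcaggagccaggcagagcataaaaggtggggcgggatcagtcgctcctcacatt
The windows of Hba-a1 and Hba-a2 were identical at 241 of 250 aligned positions, 96.4%. Hbb aligned with Hba-a1 at 51.4% of positions. Both α-globin windows held TGATAA at -165 to -160, CACCC at -149 to -145, CCAAT at -71 to -67 and TATAAA at -28 to -23, counted from the start site. The Hbb window held CACCC at -95 to -91 and a pair of abutting CCAAT matches, on opposite strands, from -86 to -77. No match overlapped another. Among 33469 RefSeq windows of the same length, 49.2% held CACCC, 34% held CCAAT, 16.1% held both, 12.9% held TATAAA and 16.9% held AGATAA or TGATAA. These matches are descriptions of letters and not of binding.

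Between 14064414 and 17136958 reads were counted on genes in each rat. Values below are CPM, counts per 1e+06 counts in the library, scaled by edgeR's TMM method, unless another quantity is named. Mitochondrial genes took 22.8 to 28.9% of counts in Sham rats, 8.52 to 11.5% in MI rats and 7.14 to 14.2% in iCarP+/Light+ rats. The limit of 3 counts in a library was 0.144 to 0.228 CPM, far below the 5 genes, and it covers counting error only because reads carried no molecular identifiers. Rats are named by the numbers in their sample names. In tissue of this kind, fewer red cells and less RNA per red cell cannot be told apart.

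Summed over Hba-a1, Hba-a2 and Hbb, hemoglobin was lowest in MI rats, but the iCarP+/Light+ rats ranged from below every Sham rat to far above them. The sum was 10452, 8478, 7770 and 8013 CPM in Sham rats 1, 2, 3 and 5. It was 2482, 5017, 6874 and 2608 CPM in MI rats 1, 3, 4 and 5. It was 10765, 6141, 15529 and 17315 CPM in iCarP+/Light+ rats 1, 2, 4 and 5. All 4 MI rats were below all 4 Sham rats, while iCarP+/Light+ rat 2 was below MI rat 4. The mean log2 sum was 1.16 lower in MI than in Sham rats (log2 ratio -1.16), 1.58 above the MI mean in iCarP+/Light+ rats, and there 0.42 above the Sham mean. The spread between rats of a group, as a pooled SD on the log2 scale, was 0.58. Without iCarP+/Light+ rat 2, the difference from MI rats was 1.88, and without rat 5 it was 1.31.

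The scaling bears on the first of these differences. As a share of all counts, hemoglobin took 0.609 to 0.849% in Sham rats, 0.306 to 0.788% in MI rats and 0.606 to 1.66% in iCarP+/Light+ rats. On this scale MI and Sham rats overlapped. The log2 ratio of MI to Sham for the sum was then -0.58, beside a median of 0.52 over all 15101 genes tested, so relative to that median it was -1.10. The widest 95% exact binomial interval, that of iCarP+/Light+ rat 4, ran from 1.62 to 1.64%, so counting error was small beside the differences between rats.

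**Figure D1:**
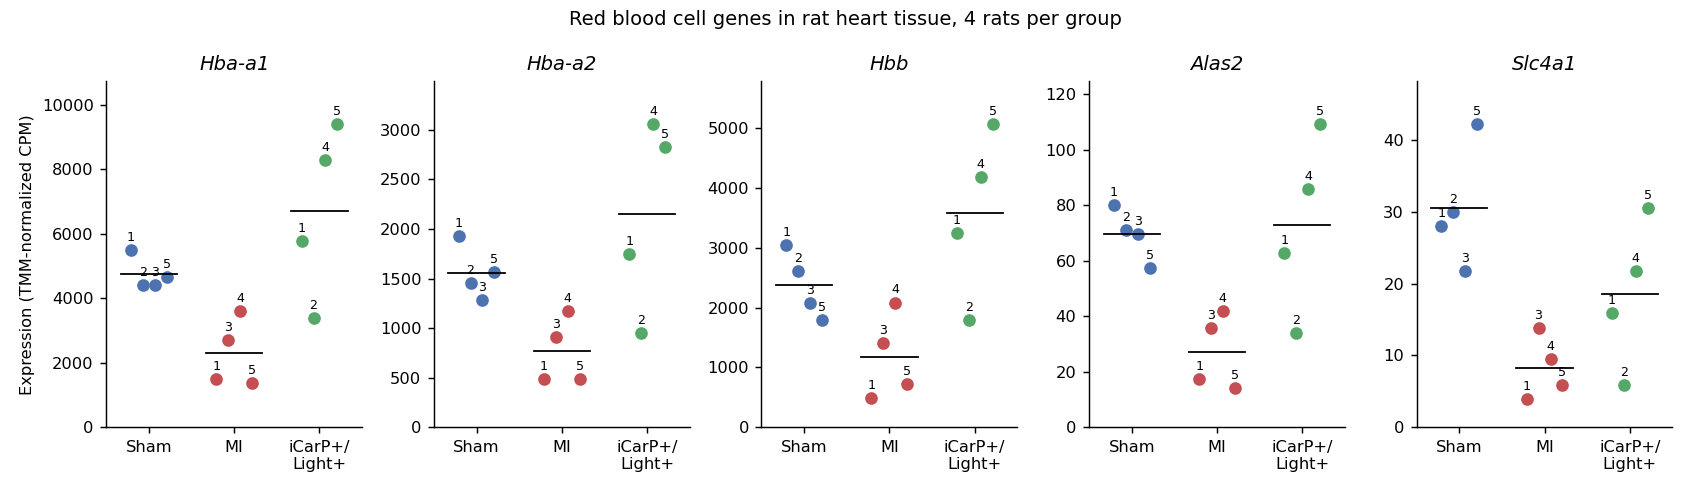
Expression of Hba-a1, Hba-a2, Hbb, Alas2 and Slc4a1 in TMM-normalized CPM on linear axes from 0, 1 point per rat with its number, 4 rats per group, and a line at the group mean. MI rats 3 and 4 sit above MI rats 1 and 5 in every panel, and rat 2 is the lowest of the iCarP+/Light+ rats in every panel.

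Hba-a1 was the most abundant of the 5 genes. Its level was 5491, 4411, 4414 and 4662 CPM in Sham rats 1, 2, 3 and 5. In MI rats 1, 3, 4 and 5 it was 1508, 2700, 3613 and 1389 CPM. In iCarP+/Light+ rats 1, 2, 4 and 5 it was 5775, 3399, 8294 and 9417 CPM. MI rats were all below Sham rats, and the iCarP+/Light+ rats overlapped both other groups. The means were 4744 ± 511 (SD, n = 4), 2303 ± 1055 (SD, n = 4) and 6721 ± 2688 (SD, n = 4) CPM, so the SD among treated rats was larger than the whole range of the Sham rats. The fitted log2 fold change was -1.04 (SE 0.34) for MI against Sham and 1.55 (SE 0.34) for iCarP+/Light+ against MI.

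Hba-a2, the second α-globin gene, followed Hba-a1 at a lower level. It was at 1924, 1454, 1286 and 1563 CPM in Sham rats 1, 2, 3 and 5. MI rats 1, 3, 4 and 5 had 490, 909, 1177 and 487 CPM. iCarP+/Light+ rats 1, 2, 4 and 5 had 1745, 948, 3061 and 2830 CPM. MI rats again lay below all Sham rats, and here rat 4 rather than rat 5 was the highest treated animal. The fitted log2 fold change was -1.02 (SE 0.36) for MI against Sham and 1.49 (SE 0.36) for iCarP+/Light+ against MI.

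Hbb, the β-globin gene, varied more among MI rats on the log2 scale than either α-globin gene did, with an SD of 0.94 beside 0.66 for Hba-a1 and 0.64 for Hba-a2. Its level was 3037, 2614, 2070 and 1788 CPM in Sham rats 1, 2, 3 and 5. In MI rats 1, 3, 4 and 5 it was 484, 1407, 2084 and 732 CPM. In iCarP+/Light+ rats 1, 2, 4 and 5 it was 3244, 1794, 4173 and 5069 CPM. MI rat 4 was above Sham rats 3 and 5, so for this gene the groups overlapped. The fitted log2 fold change was -1.01 (SE 0.41) for MI against Sham and 1.60 (SE 0.42) for iCarP+/Light+ against MI.

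Alas2 was about as high in treated as in Sham rats on average, with a much wider spread. It was at 80.0, 71.2, 69.8 and 57.6 CPM in Sham rats 1, 2, 3 and 5. MI rats 1, 3, 4 and 5 had 17.3, 35.7, 41.9 and 14.4 CPM. iCarP+/Light+ rats 1, 2, 4 and 5 had 62.9, 33.9, 85.9 and 109 CPM. Every MI rat was below every Sham rat, whereas 2 of the 4 treated rats were above the highest Sham rat and 1 was below the lowest. The fitted log2 fold change was -1.35 (SE 0.37) for MI against Sham, 1.42 (SE 0.37) for iCarP+/Light+ against MI and 0.07 (SE 0.36) for iCarP+/Light+ against Sham.

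Slc4a1 had a lower mean CPM in iCarP+/Light+ than in Sham rats. It was at 28.0, 29.9, 21.8 and 42.2 CPM in Sham rats 1, 2, 3 and 5. MI rats 1, 3, 4 and 5 had 3.93, 13.8, 9.51 and 5.90 CPM. iCarP+/Light+ rats 1, 2, 4 and 5 had 15.9, 5.92, 21.7 and 30.5 CPM. MI rats lay below all Sham rats, and treated rats overlapped both groups. The fitted log2 fold change was -1.88 (SE 0.45) for MI against Sham, 1.16 (SE 0.45) for iCarP+/Light+ against MI and -0.72 (SE 0.44) for iCarP+/Light+ against Sham.

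Of the 5 genes, 4 had all MI rats below all Sham rats, beside 31.4% of all tested genes, and this contrast was used to choose them. With total counts in place of TMM, that held for Slc4a1 alone among the 5. None of the 5 had all iCarP+/Light+ rats above all MI rats, beside 12.1% of all tested genes, and none had them all below, beside 4.37%. None was without overlap between iCarP+/Light+ and Sham rats, where 31.9% of tested genes lay above and 31.6% below. The comparisons share groups, so the 3 sets of values are not independent of each other. Per kilobase of listed gene length, the mean level in Sham rats was 8533 CPM for Hba-a1, 3602 for Hbb, 2795 for Hba-a2, 39.8 for Alas2 and 6.31 for Slc4a1. In that order, the ranges of Hbb and Hba-a2 overlapped between Sham rats, and the other neighbours did not.

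Ratios between these genes within a rat varied less than their levels. The ratio of Hba-a1 to Hba-a2 counts was 2.85 to 3.43 in Sham rats, 2.85 to 3.08 in MI rats and 2.71 to 3.58 in iCarP+/Light+ rats. Its pooled SD within groups was 0.12 on the log2 scale, where Hba-a1 itself had 0.55. The 3 groups overlapped, as they did for the ratio of both α-globin genes to Hbb. That ratio was 2.24 to 3.48 in Sham rats, 2.30 to 4.13 in MI rats and 2.32 to 2.72 in iCarP+/Light+ rats, with MI rat 1 the highest.

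Alas2 and Slc4a1 made up a larger part beside hemoglobin in Sham rats than in either ligated group. Alas2 had 7.66, 8.40, 8.98 and 7.18 counts per 1000 hemoglobin counts in Sham rats 1, 2, 3 and 5. MI rats 1, 3, 4 and 5 had 6.98, 7.12, 6.10 and 5.51, and iCarP+/Light+ rats 1, 2, 4 and 5 had 5.85, 5.52, 5.53 and 6.32. All Sham rats were above all other rats, narrowly so for MI rat 3. The treated and MI rats overlapped. A ratio of counts within a rat does not depend on how libraries are scaled. The pooled within-group SD of this ratio was 0.14 on the log2 scale, against 0.62 for Alas2 itself. Slc4a1 had 2.68 to 5.27 counts per 1000 hemoglobin counts in Sham rats, 1.38 to 2.74 in MI rats and 0.964 to 1.76 in iCarP+/Light+ rats. iCarP+/Light+ rats lay below all Sham rats, whereas MI rat 3 reached into the Sham range. Because these ratios combine genes chosen for their change, no test was made of them.

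**Figure D2:**
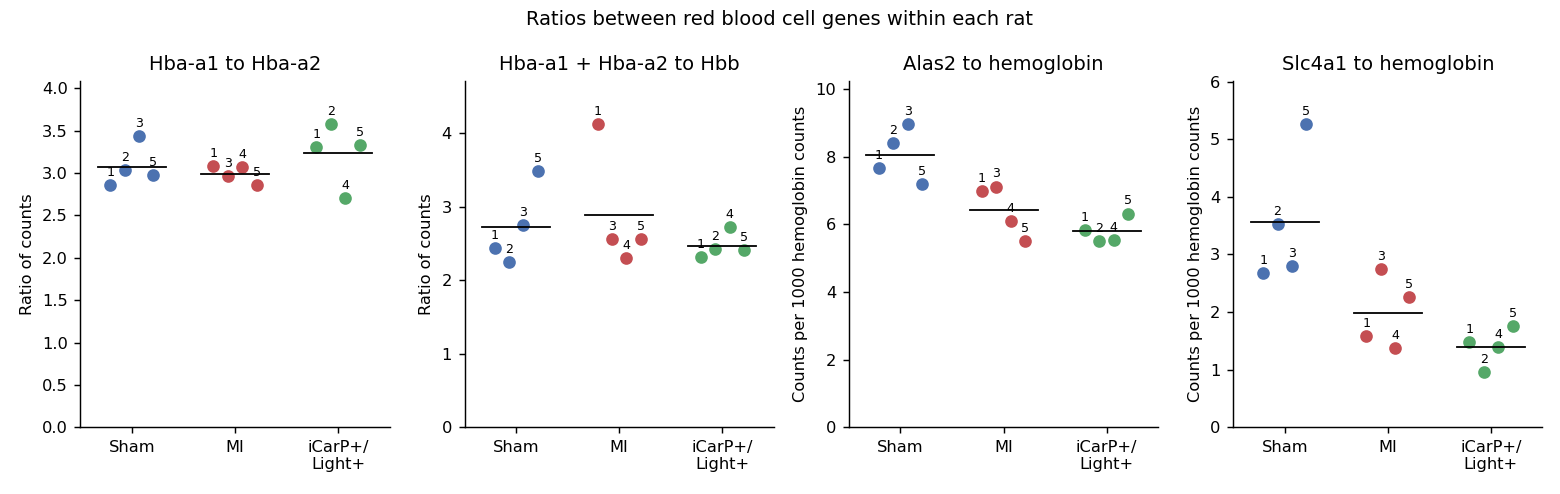
Ratios of raw counts within each rat on linear axes from 0, for Hba-a1 to Hba-a2, for Hba-a1 plus Hba-a2 to Hbb, and for Alas2 and Slc4a1 per 1000 hemoglobin counts, with 1 numbered point per rat and a line at the mean of the 4 rats. The first pair overlap in all groups, while Alas2 per 1000 hemoglobin counts is 7.18 or more in Sham rats and 7.12 or less in the others.

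The rats that were high in hemoglobin within a group were also high in Alas2. Hemoglobin in MI rats 3 and 4 was 0.38 and 0.83 above the MI mean on the log2 scale, and Alas2 was 0.53 and 0.76 above its own. In iCarP+/Light+ rat 2, hemoglobin deviated by -0.91 and Alas2 by -0.98. Sham rats stayed within -0.15 to 0.28 of their mean for hemoglobin. These deviations share library and scaling, and are given as a description. A likeness to hemoglobin was also measured for 12928 protein-coding genes as the SD over the 12 rats of their log2 ratio to the hemoglobin sum, where a low SD means a like pattern and the median gene had 1.01. The 5 closest genes outside the members were LOC100134871 at 0.21, Hbb-b1 at 0.23, Hemgn at 0.25, LOC103694857 at 0.29 and LOC103694855 at 0.32. LOC100134871, Hbb-b1 and LOC103694855 had been listed as globins, and Hemgn encodes hemogen, a nuclear protein of blood cell precursors. Alas2 had 0.24 on this measure. Slc4a1 had 0.68, which would rank it 240 among those genes.

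Other red cell genes were taken from 5 lists that left out the members. Of 74 listed genes, 67 were in the table and 54 had enough counts for edgeR's quasi-likelihood test, with Benjamini-Hochberg adjustment over all 15101 genes. In MI against Sham rats, 28 of the 54 were lower and 4 higher, beside 33.6% lower and 30.2% higher of all tested genes. Their median log2 fold change was -0.74, and that of all genes was -0.06. In iCarP+/Light+ against MI rats, 8 of the 54 were higher, beside 11.6% of all tested genes, and 0 were lower, beside 2.01%. At an unadjusted p below 0.05 in edgeR, 18 were higher and 3 lower, beside 18% and 7.61%, and DESeq2 called 11 higher and 2 lower, beside 12.2% and 5.05% of all tested genes. The median was 0.27, beside 0.01 for all genes. In iCarP+/Light+ against Sham rats, 6 were higher and 21 lower, beside 33.5% and 33%. With total counts in place of TMM, 9 were higher and 14 lower in MI against Sham rats, beside 51% and 18.4% of all tested genes. In iCarP+/Light+ against MI rats 6 were then higher and 7 lower, beside 7.97% and 18%. These shares are also the background of the counts for each single list. The count of 8 became 5 without iCarP+/Light+ rat 5, and 12 without MI rat 4.

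**Figure D3:**
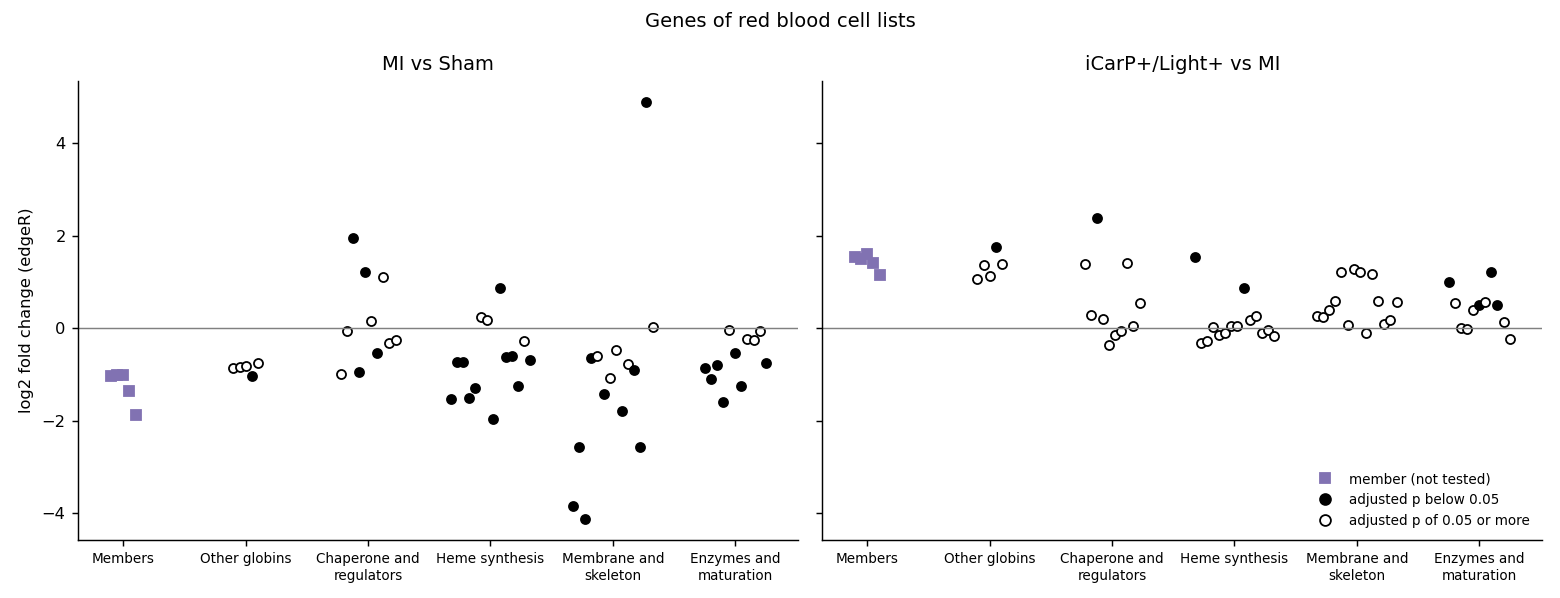
edgeR log2 fold changes of the 5 members (purple squares, not tested) and of the tested genes of 5 red cell lists (circles, filled where the adjusted p was below 0.05) for MI against Sham and for iCarP+/Light+ against MI, with 4 rats per group. The other globins sit beside the members in both panels, and the filled point near 4.90 in the first panel is Ermap, which had 0 to 3 counts in Sham rats.

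Among the other globins, LOC100134871, a β-globin gene, was by far the most abundant. It was at 2064, 1732, 1972 and 1603 CPM in Sham rats 1, 2, 3 and 5. MI rats 1, 3, 4 and 5 had 398, 1098, 1591 and 535 CPM, and iCarP+/Light+ rats 1, 2, 4 and 5 had 2968, 1584, 3499 and 4135 CPM. It showed the same order of rats as Hbb within the MI group and within the treated group. In edgeR with Benjamini-Hochberg adjustment it rose by 1.75 (SE 0.39, adjusted p = 0.00908) in iCarP+/Light+ against MI rats on the log2 scale, although iCarP+/Light+ rat 2 was just below MI rat 4. Its change in MI against Sham rats was -1.02 (SE 0.39, adjusted p = 0.0333). That call was lost with total counts (adjusted p = 0.269), with the compared groups alone, and without MI rat 1, MI rat 5, iCarP+/Light+ rat 5, Sham rat 1 or Sham rat 3, with adjusted p of 0.0539 to 0.0903 for the 5 fits that left out a rat. LOC100134871 lies inside Hbb-b1 on the same strand, so reads of these genes may be hard to part. The other 4 tested globins of the list, Hbb-b1, Hba-a3, LOC103694855 and Hbq1a, had log2 fold changes of -0.87 to -0.76 in MI against Sham and 1.06 to 1.39 in iCarP+/Light+ against MI rats, and none passed in edgeR. Other tools called more of the 5 listed globins, with 4 higher in DESeq2 and 3 in limma-voom in iCarP+/Light+ against MI rats, beside 12.2% and 11.9% of all tested genes, and 2 lower in limma-voom in MI against Sham rats, beside 34.2%. LOC103694857, a β-globin gene outside the lists that was named above for its likeness, was at 68.8 to 127 CPM in Sham rats, 17.6 to 63.0 in MI rats and 40.1 to 130 in iCarP+/Light+ rats. Its fitted log2 fold changes were -1.33 in MI against Sham and 1.31 in iCarP+/Light+ against MI rats, given without a test because it was picked for following hemoglobin in the same rats. All these globin genes resemble the members in sequence and are not independent of them. The calls of LOC100134871, which also enter the counts of listed genes above, are thus no separate support for the change in hemoglobin. The embryonic globins Hbz and Hbe2 and the gene listed as Hbg1 had 0 counts, and Hbe1 had 6 in all 12 rats together.

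Red cell regulators were mostly at low levels. Ahsp, the chaperone of free α-globin, had 1.97 to 8.17 CPM in Sham rats, 0.431 to 4.05 in MI rats and 1.99 to 10.4 in iCarP+/Light+ rats, with overlap and no call. Gata1 had 7 counts over all rats and Epo, the gene of erythropoietin, had 14, so neither could be tested. Klf1, the erythroid factor that acts on β-globin, stayed between 0.911 and 4.36 CPM in all rats. Nfe2, a factor of red cell and platelet precursors that neutrophils also express, went another way than the members. It was at 3.57 to 6.83 CPM in Sham rats, 16.1 to 31.0 in MI rats and 50.7 to 156 in iCarP+/Light+ rats, so that no group overlapped another. Nfe2 rose by 1.95 (SE 0.34, edgeR adjusted p = 2.62e-04) in MI against Sham and by 2.38 (SE 0.33, adjusted p = 3.1e-04) in iCarP+/Light+ against MI rats. Lmo2 rose by 1.23, Tal1 fell by 0.95 and Zfpm1 fell by 0.53 in MI against Sham rats, with edgeR adjusted p of 1.62e-06, 1.84e-04 and 0.00203. With total counts the falls were lost, at -0.36 for Tal1 (adjusted p = 0.0817) and 0.05 for Zfpm1 (adjusted p = 0.739).

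Of 14 tested genes of heme synthesis and its mitochondrial transport, 10 fell and 1 rose in MI against Sham rats, beside 33.6% lower and 30.2% higher of all tested genes. With total counts 5 fell and 3 rose, beside 18.4% and 51%. Fech, ferrochelatase, which puts iron into heme, fell by 1.97 (SE 0.14, edgeR adjusted p = 1.57e-07), from 113 ± 6.1 (SD, n = 4) to 28.9 ± 4.9 (SD, n = 4) CPM. It was at 29.6 ± 3.9 (SD, n = 4) CPM in iCarP+/Light+ rats. Alas1, which makes the same enzyme as Alas2 in other tissues, was at 263 to 378 CPM in Sham rats, 100 to 111 in MI rats and 244 to 357 in iCarP+/Light+ rats. MI rats lay below both other groups. Alas1 fell by 1.53 (SE 0.14, edgeR adjusted p = 1.35e-06) in MI against Sham and rose by 1.54 (SE 0.14, adjusted p = 1.94e-05) in iCarP+/Light+ against MI rats. Its 4 MI rats were close together where those of Alas2 were far apart, from 14.4 to 41.9 CPM. Slc25a37, a mitochondrial iron carrier, rose in both comparisons, by 0.87 (edgeR adjusted p = 0.00242) and by 0.86 (adjusted p = 0.0112). The second of these calls was lost without iCarP+/Light+ rat 5 (adjusted p = 0.0671). In that comparison edgeR called these 2 genes of the list higher and 0 lower, or 2 lower at an unadjusted p below 0.05, DESeq2 called 1 lower, and edgeR with total counts called 4 lower.

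Of 14 tested genes of the red cell membrane and its skeleton, 8 fell and 1 rose in MI against Sham rats, and 0 passed in either direction in iCarP+/Light+ against MI rats. In that comparison 3 were higher and 0 lower in edgeR at an unadjusted p below 0.05, beside 18% and 7.61% of all tested genes, and DESeq2 and limma-voom called 0. Several of the genes that fell encode partners of band 3 or of the spectrin skeleton that heart muscle also expresses. Ank1, ankyrin-1, which ties band 3 to spectrin, was at 90.8 to 135 CPM in Sham rats, 2.11 to 8.63 in MI rats and 5.42 to 11.3 in iCarP+/Light+ rats. Sptb, the β chain of erythroid spectrin, was at 93.4 to 119 CPM in Sham rats and at no more than 28.1 CPM in MI rats. In MI against Sham rats, edgeR gave log2 fold changes of -4.13 for Ank1, -2.58 for Sptb and -2.57 for Tmod1, with adjusted p of 1.04e-06 to 3.42e-06. In iCarP+/Light+ against MI rats the log2 fold changes of these 3 genes were 0.10 to 0.40, with adjusted p of 0.541 to 0.827. Over the 14 genes the log2 fold changes there ran from -0.10 for Xk to 1.28 for Rhd, with a median of 0.48. Epb42, Rhd, Kel and Add2 had the 4 highest, 1.18 to 1.28, with adjusted p of 0.0911 to 0.296, and other genes at similarly low levels had 0.59 (Dmtn), 0.57 (Slc14a1) and 0.17 (Ermap). Ermap rose from 3, 0, 1 and 0 counts in Sham rats 1, 2, 3 and 5 to 32 to 55 counts in MI rats (edgeR adjusted p = 2.2e-05).

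Of 11 tested red cell enzymes and genes of reticulocyte maturation, 7 fell and 0 rose in MI against Sham rats, with 0 higher also at an unadjusted p below 0.05 in edgeR, beside 31.8% of all tested genes, and 0 in DESeq2 and limma-voom. With total counts 3 were lower and 1 higher. In iCarP+/Light+ against MI rats 4 rose. Car2, carbonic anhydrase 2, was at 36.6 to 43.4 CPM in Sham rats, 14.1 to 31.6 in MI rats and 27.1 to 51.1 in iCarP+/Light+ rats. Within the ligated groups its lowest rats were MI rat 1 and iCarP+/Light+ rat 2, as for Hbb and Slc4a1. For Hba-a1, Hba-a2 and Alas2 the lowest MI rat was rat 5. It fell by 0.86 (SE 0.24, edgeR adjusted p = 0.00664) in MI against Sham and rose by 0.99 (SE 0.24, adjusted p = 0.0141) in iCarP+/Light+ against MI rats. The fall was lost with total counts (-0.30, adjusted p = 0.273). The rise was not called without iCarP+/Light+ rat 5 (adjusted p = 0.0545) or with the compared groups alone (adjusted p = 0.0579). Bnip3l, which directs removal of mitochondria from reticulocytes and is also induced by hypoxia in other cells, rose by 1.21 (SE 0.18, adjusted p = 4.81e-04), from 90.0 to 140 CPM in MI to 189 to 312 CPM in treated rats. The rises of Ube2o and Mkrn1, 0.50 (adjusted p = 0.0359) and 0.51 (adjusted p = 0.0372), were each lost with total counts, with DESeq2 size factors, with at least 10 counts in every rat and with the compared groups alone. That of Ube2o was also lost with no filter on low counts, and that of Mkrn1 without mitochondrial genes. Ube2o was called in 4 and Mkrn1 in 5 of the 12 fits that left out a rat, not without MI rat 1, MI rat 5, iCarP+/Light+ rat 4, iCarP+/Light+ rat 5, Sham rat 1 or Sham rat 5 for either gene, nor without MI rat 4 or iCarP+/Light+ rat 2 for Ube2o or MI rat 3 for Mkrn1. Over all these fits their adjusted p reached 0.303 for Ube2o and 0.223 for Mkrn1. Car1 and Tspo2, which are close to specific for red cells, had 39 and 63 counts over all rats and were not tested.

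Of 9 tested genes that clear hemoglobin and heme, 6 rose and 2 fell in MI against Sham rats in edgeR, while DESeq2 called 5 and limma-voom 3 higher, beside 33.3% and 29.2% of all tested genes. In iCarP+/Light+ against Sham rats edgeR called 4 higher and 2 lower. With total counts 7 were higher and 0 lower in MI against Sham rats, beside 51% and 18.4% of all tested genes. In iCarP+/Light+ against Sham rats 5 were then higher and 0 lower, beside 6664 and 3639 of all 15101 tested genes. For iCarP+/Light+ against MI rats edgeR called 1 higher and 0 lower, beside 11.6% and 2.01%. Total counts gave 0 higher and 3 lower there, beside 7.97% and 18%. Hmox1, heme oxygenase 1, which breaks heme down, was at 22.2, 24.8, 21.3 and 36.7 CPM in Sham rats 1, 2, 3 and 5. MI rats 1, 3, 4 and 5 had 595, 507, 574 and 328 CPM, and iCarP+/Light+ rats 1, 2, 4 and 5 had 553, 894, 1052 and 1504 CPM. Sham rats were far below the rest, and iCarP+/Light+ rat 1 lay within the MI range. Hmox1 rose by 4.25 (SE 0.32, edgeR adjusted p = 2.89e-07) in MI against Sham rats. It rose by 1.00 (SE 0.28, adjusted p = 0.0331) in iCarP+/Light+ against MI rats, a call that was lost with total counts, with the compared groups alone, and without MI rat 3, MI rat 5 or iCarP+/Light+ rats 2, 4 or 5, with adjusted p up to 0.155 when a rat was left out. Hp, haptoglobin, which binds free hemoglobin, had 3 to 11 counts in Sham rats and 223 to 328 in MI rats. In iCarP+/Light+ rats 1, 4 and 5 it had 37, 151 and 67 counts and in rat 2, the treated rat lowest in hemoglobin, 2144 counts. Cd163, the macrophage receptor for haptoglobin and hemoglobin, was at 16.7 to 137 CPM in MI and 16.8 to 34.5 CPM in Sham rats, with overlap. It is among the 6 called higher, close to the threshold (log2 fold change 1.23, edgeR adjusted p = 0.0495). MI rat 1 had 2869 counts of it, and the other MI rats had 310 to 1082.

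**Figure D4:**
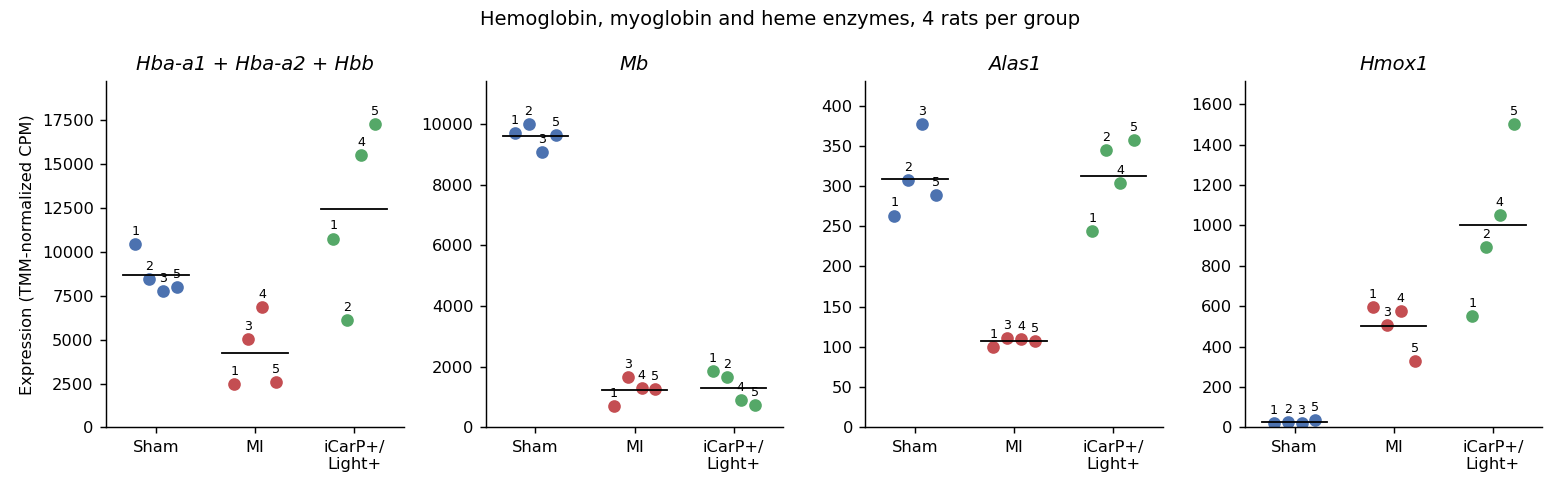
TMM-normalized CPM of summed hemoglobin (Hba-a1, Hba-a2 and Hbb), of Mb (myoglobin), of Alas1 and of Hmox1 on linear axes from 0, with 1 numbered point per rat and a line at the mean of the 4 rats in each group. Myoglobin stays at 1869 CPM or less in both ligated groups while hemoglobin reaches 17315 CPM in iCarP+/Light+ rats, and Alas1 sits within 100 to 111 CPM in all MI rats.

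Myoglobin, the oxygen store of heart muscle, is a globin of muscle cells. Mb was at 9086 to 10008 CPM in Sham rats, 695 to 1665 in MI rats and 736 to 1869 in iCarP+/Light+ rats. It fell by 2.96 (SE 0.32, edgeR adjusted p = 4.77e-06) in MI against Sham rats, and its log2 fold change was 0.07 (SE 0.30, adjusted p = 0.916) in iCarP+/Light+ against MI rats. Per hemoglobin count, Mb had 0.929 to 1.20 counts in Sham rats, 0.188 to 0.491 in MI rats and 0.0425 to 0.272 in iCarP+/Light+ rats. The treated rats highest in hemoglobin, 4 and 5, were the lowest of their group in Mb. Among MI rats this order was not seen. MI rat 1, lowest of its group in hemoglobin, was also the lowest in Mb, with 14509 counts. MI rat 3, the highest in Mb with 30875 counts, was above MI rats 1 and 5 in hemoglobin.

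Markers of other cells of blood and heart also differed between the groups, not always in the direction of the 5 genes. Of 8 neutrophil markers, 7 rose in MI against Sham and all 8 rose in iCarP+/Light+ against MI rats in edgeR, with summed levels of 19.4 to 32.7, 410 to 715 and 3104 to 8736 CPM in Sham, MI and iCarP+/Light+ rats. Of 12 platelet markers 6 were tested, and 1 rose in MI against Sham and 2 in iCarP+/Light+ against MI rats, with sums of 22.4 to 40.1, 77.6 to 241 and 104 to 247 CPM, while Gp1bb and Gp5 had 1 and 2 counts in all. Of 7 endothelial markers, all fell in MI against Sham rats, with sums of 1718 to 1939, 784 to 1193 and 1000 to 1148 CPM. For platelets and endothelium the sums of MI and iCarP+/Light+ rats overlapped, and for neutrophils and lymphocytes they did not. Pf4 made up most of the platelet sum, with a mean of 127 CPM in MI and 135 CPM in iCarP+/Light+ rats. Between these groups the tested platelet markers had log2 fold changes of 0.08 for Pf4 to 1.86 for Gp6, with a median of 1.30. At an unadjusted p below 0.05 in edgeR 5 of them were higher, beside 18% of all tested genes, and limma-voom called 3, beside 11.9%. Of 9 cardiomyocyte markers, 8 fell in MI against Sham rats, with sums of 43454 to 48236, 3030 to 6492 and 2550 to 7368 CPM. Of 8 lymphocyte markers 7 were tested, 3 rose and 1 fell in MI against Sham and 2 fell in iCarP+/Light+ against MI rats, with sums of 37.8 to 62.3, 105 to 239 and 40.7 to 82.0 CPM. Of all tested genes edgeR called 30.2% higher and 33.6% lower in MI against Sham, and 11.6% and 2.01% in iCarP+/Light+ against MI rats. With total counts 3 endothelial markers were lower, beside 18.4%, and 4 platelet markers higher, beside 51%, in MI against Sham rats. The part of these cells and of the share of mitochondrial counts in the levels of the 5 genes was not tested.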

How the data were processed

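Left ventricular RNA of 12 rats, 4 per group, was measured by RNA-seq. The authors deposited raw read counts per gene; the submitters' notes name HISAT2, featureCounts and rn6, without versions. Rows without a symbol (1716 of 34599 genes, 0.756 to 1.06% of counts) carry Ensembl identifiers and were kept. Groups and rat numbers came from the labels, and no source ties equal numbers to 1 animal or batch. The tests used edgeR 4.0.16 in R 4.3.3: filterByExpr (minimum count 10) kept 15101 genes, TMM set the library sizes, and the quasi-likelihood fit of all 12 rats gave each group its own mean. P-values were adjusted by Benjamini-Hochberg over those 15101 genes and called below 0.05. Log2 CPM for likeness used a prior count of 2. The 5 members, the gene lists and the tests were chosen with earlier results of these data known. Named genes were the members, listed genes called in MI against Sham or iCarP+/Light+ against MI and up to 4 others a list, and the 5 genes most like hemoglobin with a mean of at least 1 CPM; others named by their counts were chosen after their values were seen. One listed gene is not reported here by name. Listed LOC287167 and Hbq1b were read under the table's symbols Hba-a3 and Hbq1a, and Cd79a as Cd79al. Alternatives used DESeq2 1.42.0 and limma 3.58.1 (voom), other scalings, filters and samples, and each rat left out. The model was tested on simulated data. Chi-square per gene between rats of a group was at least 14.1, so no library was a copy. Promoters were aligned with biopython 1.88, and plots drawn with matplotlib 3.10.9. P-values measure only the spread between these rats.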

Additional observations from a re-analysis of the deposited data

Results flagged for a closer look

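Each group of 4 rats was examined for a rat that stood apart, taken as a gap to its nearest neighbour of more than 0.829 of the group's whole range on the log2 scale. Of 225 groups of values looked at, for the members, their ratios, the tested genes of the red cell and clearance lists, Mb and Cygb, 9 had such a rat, where chance gives about 1 in 20, and none of the 9 was a member gene or a ratio between members. Abcb6, a transporter in the heme synthesis list, was at 59.9 CPM in Sham rat 2 and at 48.1 to 49.2 CPM in the other Sham rats (gap 0.900 of the range). Sptb was at 93.4 CPM in Sham rat 5 and at 114 to 119 CPM in the others (0.834). Ank1 was at 2.11 CPM in MI rat 1 and at 6.92 to 8.63 CPM in the other MI rats (0.841). Tmod1, tropomodulin 1, was at 243 CPM in Sham rat 3 and at 223 to 225 CPM in the other Sham rats (0.884), and at 24.0 CPM in MI rat 1 and 40.6 to 44.8 CPM in the other MI rats (0.844). Hp was at 0.217 CPM, 3 counts, in Sham rat 1 and at 0.663 to 0.751 CPM in the other Sham rats (0.900), levels close to the limit of detection. Hbb-b1 was at 131 CPM in Sham rat 1 and at 84.4 to 88.9 CPM in the other Sham rats (0.880). Rhd, the gene of a blood group protein, was at 0.725 CPM in iCarP+/Light+ rat 2, the treated rat lowest in hemoglobin, and at 5.69 to 7.10 CPM in the other treated rats (0.899). Slc14a1, a urea transporter, was at 0.423 CPM in iCarP+/Light+ rat 2 and at 0.745 to 0.774 CPM in the other treated rats (0.919), also near that limit. No cause was tested.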

How the results depend on the processing

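Of 168 values under 12 alternatives other than leaving out a rat, 9 moved by more than the spread between rats or, for a count, by over 1.5 times, and 0 reversed. Scaled by total counts, the median gene shifted to 0.52 in MI against Sham, -0.25 in iCarP+/Light+ against MI and 0.33 in iCarP+/Light+ against Sham rats, and 73.5%, 30.7% and 64.7% of all calls were higher, against 47.3%, 85.2% and 50.3% with TMM. Listed red cell genes called with total counts were 9 higher and 14 lower in MI against Sham, 6 higher and 7 lower in iCarP+/Light+ against MI and 13 higher in iCarP+/Light+ against Sham rats, and Hba-a1 had a log2 fold change of -0.48 in MI against Sham rats. The 0 lower genes in iCarP+/Light+ against MI rats became 1 with DESeq2 size factors, without mitochondrial genes or keeping genes of 10 counts or more throughout, and 2 with DESeq2, where 77.4%, 79.8%, 72.4% and 70.8% of all calls were higher. DESeq2 called 1849 genes higher and 763 lower there, and edgeR 1747 and 304. With that minimum of 10 counts edgeR called 1248 and 475, and with total counts 1204 and 2722.

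With 1 rat left out, 5 to 12 listed genes were higher and 0 to 1 lower in iCarP+/Light+ against MI rats, 4 to 6 higher and 25 to 30 lower in MI against Sham rats, and 6 to 7 higher and 20 to 22 lower in iCarP+/Light+ against Sham rats. The hemoglobin ratio then ran from -1.43 (without MI rat 4) to -0.94 (without MI rat 1) in MI against Sham rats, from 1.31 to 1.88 in iCarP+/Light+ against MI rats and from 0.26 to 0.73 in iCarP+/Light+ against Sham rats. Alas2 in iCarP+/Light+ against Sham rats ran from -0.16 to 0.31. With 8 α- and β-globin genes summed, an alternative chosen after seeing the data, the pattern of rats was much the same, with 9894 to 12951 CPM in Sham rats, 2958 to 8754 in MI rats and 7938 to 21919 in iCarP+/Light+ rats. Rats with the same number are different animals. Deviations of the 9 same-numbered pairs correlated at -0.15 to 0.07. With so few rats this cannot tell whether equal numbers shared a batch. With a replicate block the hemoglobin ratios were -1.47, 1.74 and 0.27. With the block, Hmox1, Slc25a37, Mkrn1 and Ube2o lost their calls in iCarP+/Light+ against MI rats (adjusted p of 0.161, 0.0767, 0.0950 and 0.109). The causes of these shifts were not tested.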
